A study of Mus musculus with 8 samples.

Results

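The genes described here are 36 mouse genes that fold, quality-check and pass on proteins made at the endoplasmic reticulum (ER). They were chosen by symbol for what their products do, out of 55335 gene identifiers in the expression files, and all 36 were found. They fall into 4 roles: 15 chaperones and folding enzymes, 8 genes of ER-associated degradation, 9 genes of the translocon, its associated complex and signal peptidase, and 4 genes of stress sensing (3 sensors and 1 transcription factor). RNA came from prostate epithelium sorted as EpCAM+, CD24A+ and CD49F-low. All mice, controls included, carried 1 shared deletion, so no group is wild type. PP mice had that deletion alone, and PPK mice were also Kmt2cPC-/-, with Kmt2c, which encodes a histone H3 lysine 4 methyltransferase, deleted as well. Each genotype was profiled after sham surgery at 3.5 months of age and after androgen deprivation therapy (ADT) at 6.5 months, giving 4 groups of 2 libraries, lettered A and B. Age and ADT moved together and cannot be told apart. The labels used here do not say which Cre driver "PC" stands for, how androgen was withdrawn, or whether libraries A and B came from separate mice, so a p-value here speaks for the spread between libraries, which may be only technical.

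Proteins bound for secretion or for membranes enter the ER through the Sec61 channel, lose their signal peptide to signal peptidase, and fold with the help of chaperones such as BiP and of protein disulfide isomerases. Proteins that fail to fold are pulled back to the cytosol and degraded. When unfolded proteins build up, the sensors IRE1, ATF6 and PERK switch on a response in which ATF6 and spliced XBP1 raise transcription of the chaperone and degradation genes. Prostate luminal cells release large amounts of androgen-dependent secretory protein, and their ER serves that output.

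Values are FPKM, mapped fragments scaled to transcript length and library size, so levels are per length and can be set side by side between genes. Fold changes below are differences of log2(FPKM + 1), each with its standard error (SE), and they understate the change of weakly expressed genes. The test throughout is limma, two-sided, with Benjamini-Hochberg adjustment over the 14000 genes with at least 1 FPKM in at least 2 libraries; a gene rose, fell, or was called higher or lower where its adjusted p was under 0.05. Kmt2c read 13.3 and 13.9 FPKM in the PP sham libraries and 8.67 and 8.15 in PPK sham, then 10.3 and 9.33 in PP ADT and 6.60 and 6.36 in PPK ADT, lower with each PPK label. The sort antigen Epcam ranged from 309.8 to 565 FPKM over the 8 libraries. Summed FPKM ran from 284015 to 333977 per library. Read totals are unknown from these files. All 36 members passed the FPKM filter, Derl3 only through the PP sham libraries and Ern2 only through the sham libraries, so counts are also given without that pair. In bulk RNA, fewer cells of a type and less RNA per cell cannot be told apart.

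Promoter sequences were searched for the elements of the ER stress response. The classical element, ERSE, reads CCAAT, 9 bases of any kind, then CCACG, and is bound by NF-Y with ATF6 or XBP1; ERSE-II reads ATTGG, 1 base, then CCACG. Both were searched on both strands of RefSeq windows (GRCm38.p6) from 250 bases before to 50 after each gene's start, and 29 of the 36 members have such a window. ERSE was found in 9 of the 29 genes, which is 31.0%, against 0.119% of all 32851 windows. ERSE-II was found in 2 of the 29, Dnajb11 and Herpud1, against 0.0365% of all windows. The element TGACGTGG (named UPRE) was in none of the 29 and in 0.676% of all windows. By role, either ERSE form was present in 8 of 13 chaperone and folding genes with a window, 3 of 7 degradation genes, 0 of 7 translocon genes and 0 of 2 sensor genes. A match describes letters only and is not evidence of binding. The following 4 stretches before the start site are shown because they hold 2 elements, 1 ERSE-II, 1 ERSE and none, in genes whose levels are compared below; capitals mark ERSE or ERSE-II, and an element that lies on the opposite strand reads CGTGG first in ERSE. Hsp90b1 holds 1 element in each direction (chr10:86705510-86705694, minus strand), Herpud1 holds ERSE-II (chr8:94386179-94386428, plus strand, in an intron of the gene model Gm15890), Calr holds 1 ERSE on the opposite strand (chr8:84846935-84847181, minus strand), and Pdia4 holds none (chr6:47813513-47813762, minus strand).
Hsp90b1: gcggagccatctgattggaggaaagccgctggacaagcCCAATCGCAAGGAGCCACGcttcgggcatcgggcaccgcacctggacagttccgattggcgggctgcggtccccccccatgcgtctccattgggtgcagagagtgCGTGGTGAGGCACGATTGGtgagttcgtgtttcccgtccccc
Herpud1: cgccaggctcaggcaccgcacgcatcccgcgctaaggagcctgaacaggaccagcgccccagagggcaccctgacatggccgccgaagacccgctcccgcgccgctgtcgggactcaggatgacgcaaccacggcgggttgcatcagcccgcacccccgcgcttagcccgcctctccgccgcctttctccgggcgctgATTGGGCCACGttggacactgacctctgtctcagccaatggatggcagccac
Calr: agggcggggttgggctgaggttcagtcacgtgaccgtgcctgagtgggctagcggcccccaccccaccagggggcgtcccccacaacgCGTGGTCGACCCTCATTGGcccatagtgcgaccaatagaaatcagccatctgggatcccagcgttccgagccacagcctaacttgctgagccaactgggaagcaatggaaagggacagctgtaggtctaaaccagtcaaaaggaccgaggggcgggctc
Pdia4: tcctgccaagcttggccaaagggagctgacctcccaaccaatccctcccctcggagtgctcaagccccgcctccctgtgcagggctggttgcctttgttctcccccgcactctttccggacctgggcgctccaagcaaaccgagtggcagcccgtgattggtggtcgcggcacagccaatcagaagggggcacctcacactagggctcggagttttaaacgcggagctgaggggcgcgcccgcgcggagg

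The other genes with an element show how the fixed ends are kept while the bases between them differ. In these sites capitals mark the fixed letters, each is written in its CCAAT-first or ATTGG-first orientation, and those of Creld2 and Derl3 lie on the strand opposite to the gene.
Hspa5: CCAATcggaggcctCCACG
Dnajb11: ATTGGcCCACG
Dnajc3: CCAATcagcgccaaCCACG
Creld2: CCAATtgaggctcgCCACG
Canx: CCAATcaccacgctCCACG
Pdia6: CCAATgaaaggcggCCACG
Syvn1: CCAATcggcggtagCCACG
Derl3: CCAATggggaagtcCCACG
The Hspa5 site starts 65 bases before the RefSeq start (chr2:34772025-34772043), within an exon of the GENCODE M21 model of Hspa5, which begins further upstream. The Dnajb11 site (chr16:22857852-22857862) also lies in an exon of its gene. The sites of Dnajc3 (chr14:118937827-118937845), Creld2 (chr15:88819520-88819538), Canx (chr11:50325800-50325818), Pdia6 (chr12:17266491-17266509), Syvn1 (chr19:6046532-6046550) and Derl3 (chr10:75893242-75893260) lie in no gene model.

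In sham mice, loss of Kmt2c went with lower levels of most of these genes. Of the 36, 20 were lower and 1, Calr, was higher in PPK than in PP, beside 14.9% of all tested genes called lower and 13.7% called higher. Their median log2 change was -0.26, against -0.02 over all tested genes. In ADT mice the direction was mostly the opposite: 20 were higher and 6 lower in PPK than in PP, beside 32.5% of tested genes higher and 27.1% lower, with a median of 0.25 against 0.05. Without Derl3 and Ern2 the counts were 18 lower and 1 higher of 34 in sham mice, and 20 higher and 6 lower of 34 in ADT mice. Under quantile normalization the share of calls that were higher in ADT mice went from 76.9% to 66.7%.

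The ADT result depended on how libraries were scaled. When each library was scaled to the same summed FPKM, a setting chosen after seeing the data, the median of all tested genes in that comparison shifted by -0.16 on the log2 scale, to -0.12. Of the 36 members 11 were then higher and 10 lower in PPK, with a median of 0.051, beside 24.3% of all genes higher and 37.3% lower. The 11 were Canx, Creld2, Dnajb9, Dnajb11, P4hb, Pdia4, Sec61b, Sec61g, Ssr3, Ssr4 and Ern1, all among the 20. The higher calls of Hsp90b1, Hyou1, Sdf2l1, Pdia3, Pdia6, Derl1, Edem2, Sec61a1 and Ssr2 did not pass on that scale (limma adjusted p between 0.0975 and 0.833), and Calr, Derl2, Syvn1 and Atf6 were newly called lower. In sham mice the same scaling gave 16 lower and 2 higher, in PP mice 23 falls and 3 rises after ADT, and in PPK mice 18 falls and 6 rises.

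Between sham at 3.5 months and ADT at 6.5 months, the set was lower in PP mice and split in PPK mice. In PP mice 25 of the 36 fell and 2 rose, beside 25.1% of tested genes lower and 19.1% higher, with a median log2 change of -0.51 against -0.07 over all tested genes. In PPK mice 15 fell and 8 rose, beside 30.7% lower and 31.9% higher, with a median of -0.24. The median over all genes there was 8.6e-05. These comparisons each share a sham or an ADT group with the genotype comparisons above, so they are given side by side and not as separate support. Without Derl3 and Ern2, 23 fell and 2 rose of 34 in PP mice, and 14 fell and 8 rose in PPK mice.

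**Figure D1:**
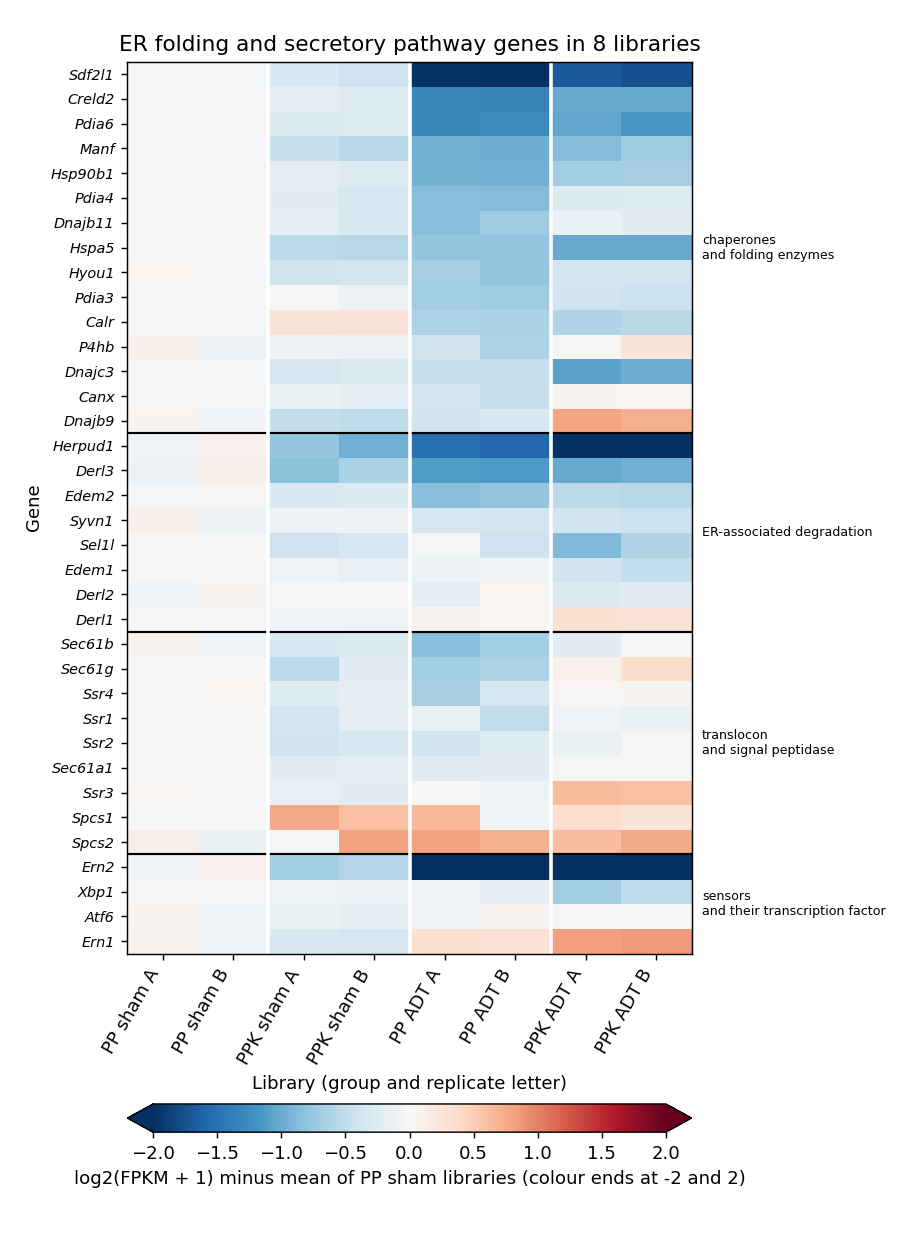
Each row is a gene and each column a library; colour gives log2(FPKM + 1) minus the mean of the PP sham libraries, ending at -2 and 2, with roles parted by black lines and groups by white lines. Most chaperone rows are blue (lower) in both PP ADT libraries and paler in the PPK ADT libraries, Dnajb9 and Ssr3 turn red (higher) in PPK ADT, and Herpud1 and Ern2 are dark blue there.

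Summed over genes, the 15 chaperones and folding enzymes reached 2086 ± 33.2 FPKM (SD, n = 2) in PP sham, 1873 ± 32.6 in PPK sham, 1249 ± 31.0 in PP ADT and 1494 ± 31.9 in PPK ADT. The degradation genes ran from 203 ± 6.27 in PP sham through 145 ± 5.08 and 121 ± 3.49 to 104 ± 0.172 in PPK ADT. The 9 translocon and signal peptidase genes reached 249.7 ± 4.82, 229 ± 9.98, 221 ± 6.72 and 290.0 ± 8.26 FPKM in the same order, with PPK ADT above every other group. Sensors and factor summed to 72.0 ± 1.44, 60.6 ± 0.669, 60.2 ± 1.56 and 58.9 ± 2.71 FPKM. These sums are descriptions with no test, and a few abundant genes carry them. Summed FPKM over all genes was itself larger in PPK ADT libraries. As a share of all FPKM the chaperones made up 0.438% ± 0.0132 in PP ADT and 0.451% ± 0.00503 in PPK ADT (SD, n = 2), with overlapping libraries. The translocon share was 0.0776% ± 0.00276 and 0.0875% ± 0.00160 in those groups.

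**Figure D2:**
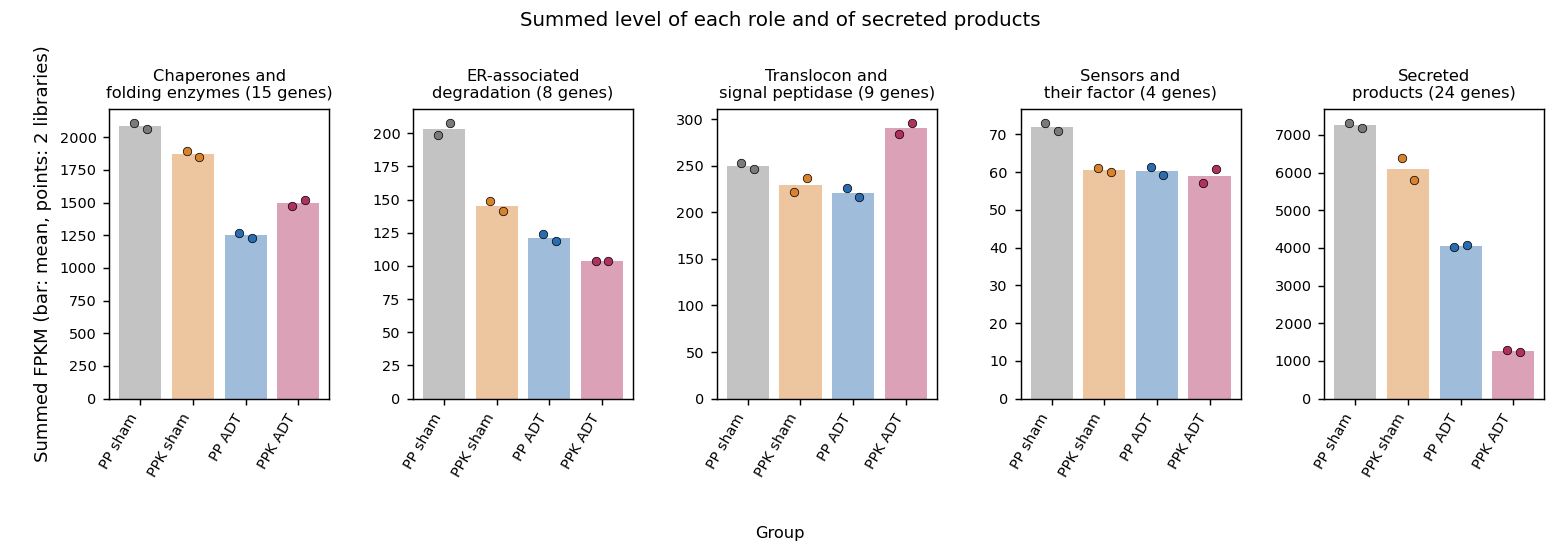
Bars give the mean and points the 2 libraries of summed FPKM in each group, for the 4 roles and for 24 genes of secreted prostate and gland products. On this scale chaperones are lowest in PP ADT, degradation genes and secreted products are lowest in PPK ADT, and translocon genes are highest in PPK ADT.

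Among chaperones and folding enzymes, 12 of 15 were lower and 1 higher in PPK than in PP sham mice (median log2 change -0.27), and 11 were higher and 2 lower in ADT mice (median 0.32). All 15 fell from sham to ADT in PP mice (median -0.78). In PPK mice 9 fell and 2 rose over the same interval (median -0.36).

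Hspa5 encodes BiP, the Hsp70 of the ER lumen that binds unfolded chains and holds the sensors inactive (ENSMUSG00000026864, chr2:34771970-34777547, GENCODE on GRCm38). Its level was 398 and 397 FPKM in PP sham, 274 and 272 in PPK sham, 232 and 230.5 in PP ADT and 198 and 198 in PPK ADT. The libraries of a group lay close and no groups overlapped. Hspa5 was lower in PPK in both settings, with log2 changes of -0.54 ± 0.020 (SE) after sham surgery and -0.23 ± 0.020 after ADT (limma adjusted p 1.2e-05 and 0.00011). It fell in both genotypes after ADT, by 0.78 on the log2 scale in PP mice and by 0.46 in PPK mice.

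Hsp90b1 encodes GRP94, the Hsp90 of the ER, and carries an ERSE in each direction in the stretch printed above. It read 225 and 229.9 FPKM in PP sham, 198 and 190.3 in PPK sham, 118 and 116 in PP ADT and 141 and 143 in PPK ADT. The sham groups stood above the ADT groups, and the order of the genotypes differed between them. The log2 change, PPK against PP, was -0.23 ± 0.029 without ADT and 0.28 ± 0.029 with it (limma adjusted p 0.0019 and 0.00024). Quantile normalization of the libraries ended the ADT call for Hsp90b1 and turned its direction, to -0.070 (limma adjusted p 0.0677), and at equal summed FPKM it was 0.063 (limma adjusted p 0.103).

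Calr and Canx, lectin chaperones that hold glycoproteins while they fold, took different courses. Calr was the 1 member called higher in PPK sham mice on the deposited scale. It read 453 and 457 FPKM against 381 and 379 in PP sham (log2 change 0.26 ± 0.026, limma adjusted p 0.00062). After ADT it lay at 248 and 244 in PP mice and at 249.6 and 259 in PPK mice, close together, and fell in both genotypes, by 0.63 on the log2 scale in PP and by 0.84 in PPK. Its genotype difference in ADT mice did not pass (0.05, limma adjusted p 0.13), but under quantile normalization it was -0.34 (limma adjusted p 4.48e-05) and at equal summed FPKM -0.17 (limma adjusted p 0.00111).

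Canx read 105 and 104 FPKM in PP sham, 95.5 and 91.0 in PPK sham, 80.6 and 75.1 in PP ADT and 109 and 107 in PPK ADT. It is thus a gene whose PPK ADT level stood above its sham levels: Canx rose from sham to ADT in PPK mice (0.21 ± 0.042, limma adjusted p 0.0049) and fell in PP mice (-0.42 ± 0.042, limma adjusted p 0.00035). Under quantile normalization the Canx rise did not pass (0.070, limma adjusted p 0.229), nor at equal summed FPKM (0.079, limma adjusted p 0.175). The lower Canx level in PPK sham mice (-0.16, limma adjusted p 0.032) is a small change, and leaving out either PP sham or either PPK ADT library, or PPK sham B, ended it, with a limma adjusted p of up to 0.143 without PPK sham B.

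The protein disulfide isomerases, which form and reshuffle disulfide bonds, had their lowest level in PP ADT. Pdia4 read 106 and 105 FPKM in PP sham, 89.9 and 84.2 in PPK sham, 58.4 and 57.3 in PP ADT and 87.6 and 88.0 in PPK ADT. Its PPK ADT libraries thus lay within the range of PPK sham, and the change in PPK mice was 0.01 ± 0.036 (limma adjusted p 0.77), against -0.86 ± 0.036 in PP mice (limma adjusted p 6.7e-06). At equal summed FPKM the value in PPK mice was -0.12 (limma adjusted p 0.0338). Pdia6 read 96.3 and 96.2 in PP sham, 79.7 and 80.2 in PPK sham, 38.2 and 39.0 in PP ADT and 46.6 and 42.5 in PPK ADT. Pdia6 fell in both genotypes, by 1.30 on the log2 scale in PP mice and by 0.83 in PPK mice. Its higher level in PPK after ADT (0.20, limma adjusted p 0.0085) was 0.10 under quantile normalization (limma adjusted p 0.105) and -0.014 at equal summed FPKM (limma adjusted p 0.833).

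Pdia3, which works with the lectin chaperones on glycoproteins, read 278 and 276 FPKM in PP sham, 278 and 256 in PPK sham, 171 and 168 in PP ADT and 209 and 206 in PPK ADT. The sham genotypes shared their upper value, while the ADT genotypes were apart (0.29 ± 0.040, limma adjusted p 0.0009). Quantile normalization turned this Pdia3 difference to -0.17 (limma adjusted p 0.0106), and at equal summed FPKM it did not pass (0.073, limma adjusted p 0.18). P4hb, the first described isomerase of the family, was called higher in PPK than PP in ADT mice (0.64 ± 0.106, limma adjusted p 0.002), but its libraries spread widely, at 192 and 165 FPKM in PP ADT and 259 and 301 in PPK ADT.

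Of the J-domain cochaperones of BiP among the 36, Dnajb9, which encodes ERdj4, moved farthest between genotypes. Its level was 33.5 and 30.7 FPKM in PP sham, 22.8 and 22.2 in PPK sham, 24.2 and 25.9 in PP ADT and 55.9 and 53.8 in PPK ADT (ENSMUSG00000014905, chr12:44205559-44210326). Both PPK ADT libraries stood above all others, and Dnajb9 had the largest rise of the 36 after ADT in PPK mice (1.25 ± 0.056, limma adjusted p 3.5e-06). Against PP, the PPK level was lower without ADT (-0.50 ± 0.056) and higher with it (1.10 ± 0.056), with limma adjusted p values of 0.0011 and 7.3e-06.

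Dnajb11, which encodes ERdj3, read 28.6 and 28.5 FPKM in PP sham, 24.9 and 22.9 in PPK sham, 15.4 and 17.0 in PP ADT and 25.9 and 24.2 in PPK ADT. It was lower in PP ADT than in the other groups, with a PPK against PP change of 0.60 ± 0.066 in ADT mice (limma adjusted p 0.0003). Its sham call (-0.25, limma adjusted p 0.033) ended without PP sham A, PP sham B or PPK sham B (limma adjusted p 0.117, 0.118 and 0.147).

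Dnajc3, which encodes P58IPK, an inhibitor of PERK that also acts as a cochaperone, had the reverse order in ADT mice. It was at 50.5 and 49.0 FPKM in PP sham, 39.1 and 40.7 in PPK sham, 36.2 and 36.03 in PP ADT and 23.1 and 24.5 in PPK ADT, lower in PPK in both settings. The genotype changes were -0.31 ± 0.042 after sham surgery and -0.58 ± 0.042 after ADT (limma adjusted p 0.0023 and 3.8e-05).

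Sdf2l1, which encodes a partner of ERdj3, had the deepest fall of the chaperones in PP mice. It read 34.5 and 33.0 FPKM in PP sham, 27.1 and 25.1 in PPK sham, 7.82 and 6.04 in PP ADT and 9.88 and 9.24 in PPK ADT. No ADT library reached any sham library, and Sdf2l1 fell by 2.14 on the log2 scale in PP mice (limma adjusted p 1.4e-05) and by 1.36 in PPK mice (limma adjusted p 5.4e-05). Its genotype differences were less secure: the sham one (-0.36, limma adjusted p 0.049) ended when any library but a PP ADT one was left out, with a limma adjusted p of up to 0.187 without PPK sham B. The ADT one (0.42, limma adjusted p 0.014) ended without PPK ADT A (limma adjusted p 0.0742), and at equal summed FPKM (0.23, limma adjusted p 0.122).

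The remaining members of this role also dropped in PP mice. Hyou1, a large Hsp70 relative that exchanges BiP's nucleotide, read 29.8 and 28.3 FPKM in PP sham, 21.9 and 22.4 in PPK sham, 18.1 and 16.5 in PP ADT and 22.04 and 21.98 in PPK ADT. In PPK mice its sham and ADT levels were nearly the same (-0.01 ± 0.054, limma adjusted p 0.91). Creld2 and Manf encode stress-induced ER proteins that can be secreted. Creld2 fell by 1.32 on the log2 scale in PP mice and by 0.79 in PPK mice, to 13.8 and 13.5 FPKM and to 17.3 and 17.3. Manf fell to 17.9 and 17.4 FPKM in PP ADT from 35.7 and 34.8 in PP sham, and its genotype difference in ADT mice did not pass (0.17, limma adjusted p 0.063).

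The ER-associated degradation genes shared no direction between genotypes after ADT. Leaving out Derl3, 2 of 7 were lower and 0 higher in PPK than in PP sham mice, and 3 were lower and 2 higher in ADT mice (median log2 changes -0.12 and -0.18). The ADT counts are near the shares of all tested genes given above. From sham to ADT, 3 of the 7 fell in PP mice with no rise, and in PPK mice 4 fell and 1 rose (medians -0.22 and -0.32).

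Herpud1 encodes HERP, a membrane protein that gathers the degradation complex, and it had the deepest genotype change of the role (ENSMUSG00000031770, chr8:94386438-94395377). It read 93.9 and 105 FPKM in PP sham, 57.5 and 50.3 in PPK sham, 34.5 and 32.6 in PP ADT and 19.2 and 19.8 in PPK ADT. The 4 groups stepped down without overlap. Herpud1 was lower in PPK in both settings (-0.87 ± 0.079 and -0.75 ± 0.079, limma adjusted p 0.00042 and 0.00023 in sham and ADT mice), and it fell after ADT by 1.54 on the log2 scale in PP and by 1.42 in PPK mice.

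Edem1 and Edem2 encode mannosidase-like proteins that mark misfolded glycoproteins for removal, and on the deposited scale they went opposite ways in ADT mice. Edem1 read 19.0 and 19.6 FPKM in PP ADT and 15.3 and 14.2 in PPK ADT, lower in PPK (-0.36 ± 0.052, limma adjusted p 0.00098), after 20.6 and 20.2 in PP sham and 19.1 and 18.2 in PPK sham. Edem2 read 9.38 and 9.76 in PP ADT and 11.7 and 11.5 in PPK ADT, higher in PPK (0.25 ± 0.046, limma adjusted p 0.0031, but 0.054 and 0.353 at equal summed FPKM), after 17.2 and 17.8 in PP sham and 14.01 and 14.3 in PPK sham.

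Sel1l and Syvn1 encode the adaptor and the ubiquitin ligase (HRD1) at the core of the complex, and Derl1, Derl2 and Derl3 encode derlins that help proteins cross the membrane. Sel1l was lower in PPK ADT, at 9.38 and 11.5 FPKM against 17.6 and 13.3 in PP ADT (-0.52 ± 0.137, limma adjusted p 0.016), a call that ended without PP ADT A (-0.33, limma adjusted p 0.0646) or without PPK ADT A (-0.38, limma adjusted p 0.0903). Syvn1 did not pass between genotypes on the deposited scale and fell slightly in both, by 0.36 on the log2 scale in PP and by 0.32 in PPK mice. At equal summed FPKM Syvn1 was lower in PPK than in PP ADT mice (-0.26, limma adjusted p 0.0216). Derl1 rose in PPK mice, from 25.3 and 24.8 to 32.6 and 31.7 FPKM (0.35 ± 0.037, limma adjusted p 0.00022), and its change in PP mice did not pass (0.05, limma adjusted p 0.36) except at equal summed FPKM (0.17, limma adjusted p 0.0161).

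Derl2 stayed between 3.54 and 4.65 FPKM in all 8 libraries and passed no comparison on the deposited scale. At equal summed FPKM it was lower in PPK than in PP ADT mice (-0.35, limma adjusted p 0.0126). On that scale it also fell in PPK mice (-0.33, limma adjusted p 0.016), with a downward difference (-0.36, limma adjusted p 0.047). Derl3, a derlin induced in secretory cells, was at 1.11 and 1.41 FPKM in PP sham, 0.274 and 0.461 in PPK sham, 0.0402 and 0.0123 in PP ADT and 0.125 and 0.161 in PPK ADT. Its values outside PP sham are under 1 FPKM, and since only PP sham carried it past the filter, its calls are not read as support.

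The translocon genes had their highest summed level in PPK ADT. Of 9, 3 were lower and 0 higher in PPK than in PP sham mice (median log2 change -0.21), and 6 were higher and 0 lower in ADT mice (median 0.26). In PP mice 5 fell and 1 rose after ADT, and in PPK mice 4 rose and 0 fell (medians -0.32 and 0.25).

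Sec61a1, Sec61b and Sec61g encode the subunits of the channel itself. Sec61a1 read 41.9 and 41.8 FPKM in PP sham, 35.98 and 36.2 in PPK sham, 36.1 and 35.7 in PP ADT and 42.5 and 42.5 in PPK ADT. PP sham and PPK ADT were thus both high, PPK sham and PP ADT both low, and all 4 of its contrasts passed, between -0.21 and 0.24 with an SE of 0.029. At equal summed FPKM its ADT genotype change was 0.026 and its fall in PP mice -0.091 (limma adjusted p 0.51 and 0.0554). Sec61g, the small tail-anchored subunit, read 11.5 and 11.7 in PP sham, 7.74 and 9.87 in PPK sham, 6.89 and 7.17 in PP ADT and 12.3 and 15.0 in PPK ADT, and after ADT was higher in PPK than in PP mice (0.86 ± 0.124, limma adjusted p 0.001). Sec61b had the same order in ADT mice, at 18.4 and 21.1 against 29.6 and 34.1 (0.66 ± 0.091, limma adjusted p 0.00088). The sham genotype difference did not pass for Sec61b or Sec61g (limma adjusted p 0.056 and 0.071).

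Ssr1 to Ssr4 encode the subunits of TRAP, the complex beside the channel that helps some signal peptides insert. Ssr3 read 54.1 and 51.8 FPKM in PP sham, 47.3 and 45.4 in PPK sham, 53.2 and 49.998 in PP ADT and 82.4 and 81.1 in PPK ADT. Its PPK ADT libraries lay well above the rest: Ssr3 rose by 0.81 ± 0.044 after ADT in PPK mice (limma adjusted p 8.7e-06) and did not pass in PP mice (-0.04, limma adjusted p 0.53). Ssr4 read 11.7 and 14.9 in PP ADT and 19.5 and 20.0 in PPK ADT, higher in PPK (0.55 ± 0.101, limma adjusted p 0.0035).

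Ssr2 passed in all 4 contrasts with small changes, lower in PPK sham (-0.35) and higher in PPK ADT (0.26), and none of the 4 calls held throughout, nor did those after ADT pass at equal summed FPKM (limma adjusted p 0.0522 to 0.558). The sham call ended without PP sham A, PP sham B or PPK sham A (limma adjusted p up to 0.0696) and the ADT call without PP ADT A or PPK ADT B (up to 0.0973). The fall in PP mice ended without PP sham B or PP ADT A (limma adjusted p up to 0.0619), and the rise in PPK mice without PPK sham A or PPK ADT B (up to 0.0645). Ssr3's lower level in PPK sham mice (-0.19, limma adjusted p 0.02) ended without PP sham A or PPK sham B (limma adjusted p 0.103 and 0.097). Ssr1 passed none of the 4 contrasts.

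Spcs1 and Spcs2, accessory subunits of signal peptidase, were the noisy pair of the role. Spcs1 read 17.0 and 16.8 FPKM in PP sham, 29.3 and 26.2 in PPK sham, 27.1 and 16.3 in PP ADT and 21.7 and 20.1 in PPK ADT. Its sham genotype change, 0.68, was the highest of the 36 and did not pass. At equal summed FPKM it was 0.72 (limma adjusted p 0.0455), so Spcs1 was called higher beside Calr on that scale. The PP ADT libraries spanned both PPK ADT values, and without PP ADT A the genotype change in ADT mice went from -0.01 to 0.34 (limma adjusted p 0.0213). Spcs2 rose after ADT in PP mice (0.76 ± 0.252, limma adjusted p 0.049), at 26.1 and 24.4 against 16.1 and 13.05, a call that ended without any 1 library other than those of PPK sham (limma adjusted p up to 0.195, without PP sham B).

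The sensors and their factor did not move as a group: leaving out Ern2, 1 of 3 was lower in PPK sham mice, and in ADT mice 1 was higher and 1 lower. Ern1 encodes IRE1 alpha, the kinase and nuclease that splices Xbp1 mRNA (ENSMUSG00000020715, chr11:106394650-106487852). It read 14.2 and 12.96 FPKM in PP sham, 10.8 and 10.5 in PPK sham, 17.0 and 16.9 in PP ADT and 24.7 and 25.3 in PPK ADT. Unlike most chaperones, Ern1 rose after ADT in both genotypes, by 0.30 ± 0.053 in PP mice (limma adjusted p 0.0045) and by 1.16 ± 0.053 in PPK mice (limma adjusted p 4e-06). Its genotype change was -0.33 ± 0.053 in sham mice and 0.53 ± 0.053 in ADT mice (limma adjusted p 0.0051 and 0.00018).

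Ern2 encodes IRE1 beta, the form known from mucus-secreting epithelia (ENSMUSG00000030866, chr7:122169893-122186207). It read 11.98 and 13.5 FPKM in PP sham, 7.61 and 8.10 in PPK sham, 0.632 and 0.463 in PP ADT and 0.978 and 0.748 in PPK ADT. Every sham library was above 7 FPKM and every ADT library under 1, log2 differences of -3.15 in PP mice and -2.25 in PPK mice. Since only the sham libraries carried Ern2 past the filter, these are given as a description with no test.

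Xbp1, the transcription factor gene (ENSMUSG00000020484, chr11:5520659-5525893), read 36.4 and 34.9 FPKM in PP sham, 33.6 and 32.8 in PPK sham, 34.1 and 31.4 in PP ADT and 21.5 and 24.8 in PPK ADT. The PPK ADT libraries lay below all others, with a change of -0.48 ± 0.074 against PP ADT (limma adjusted p 0.0014). A gene-level FPKM does not part spliced from unspliced Xbp1 mRNA. Atf6, the sensor that is itself cut into a transcription factor, stayed between 8.69 and 10.4 FPKM and passed no comparison on the deposited scale. At equal summed FPKM it was lower in PPK than in PP ADT mice (-0.21, limma adjusted p 0.0279).

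**Figure D3:**
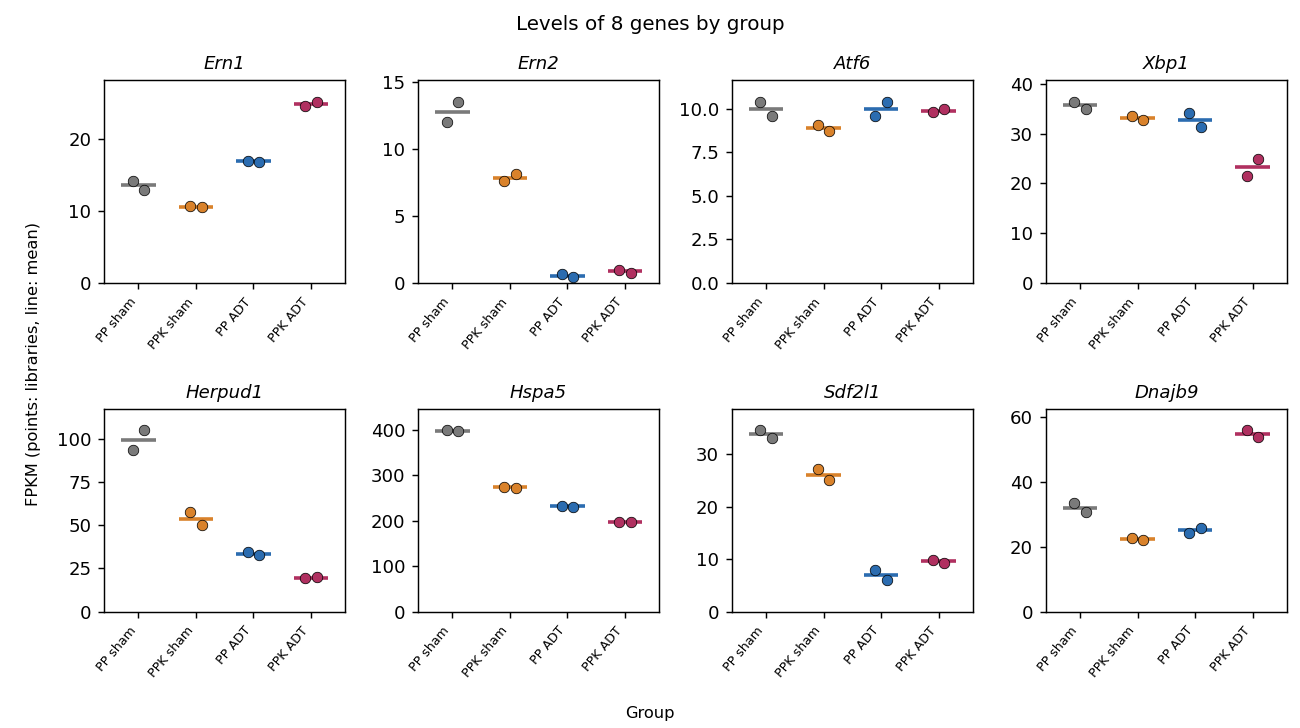
Points are the 2 libraries and lines the mean of FPKM in each group, for the 4 sensor and factor genes (upper row) and for Herpud1, Hspa5, Sdf2l1 and Dnajb9 (lower row), with each axis starting at 0. Ern1 and Dnajb9 are highest in PPK ADT, Ern2 is under 1 FPKM in all 4 ADT libraries, Atf6 is nearly level, and Herpud1 and Hspa5 step down from PP sham to PPK ADT.

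The change of the Kmt2c effect between sham and ADT mice was tested directly as a difference of differences. It passed for 29 of the 36 genes, 25 upward (PPK relatively higher in ADT mice) and 4 downward, beside 30.0% of tested genes upward and 22.8% downward. Their median was 0.52 on the log2 scale, against 0.09 over all tested genes. Without Derl3 and Ern2 it passed upward for 23 and downward for 4 of 34. At equal summed FPKM it passed upward for 21 and downward for 6 of 36, with a median of 0.28, beside 20.8% of all genes upward and 31.4% downward. Derl1, Hspa5, Pdia3 and Ssr1 were those of the 25 that no longer passed. The largest values were those of Dnajb9 (1.60 ± 0.079, limma adjusted p 9.8e-06) and Sec61g (1.23 ± 0.175, limma adjusted p 0.0013).

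Set beside each other, the genotype calls show 14 genes lower in PPK in sham mice and higher in PPK in ADT mice. These are Hsp90b1, Hyou1, Dnajb9, Dnajb11, Sdf2l1, Creld2, Canx, Pdia4, Pdia6, Edem2, Sec61a1, Ssr2, Ssr3 and Ern1. All 14 passed the test of the difference. Opposite calls from the same fit make that difference pass, so this adds no separate support. At equal summed FPKM 4 of them kept both genotype calls (Creld2, Dnajb9, Pdia4 and Ern1), and all 14 still passed the difference. Which deposited or rescaled level is nearer to the amount of RNA in a cell was not tested. Another 3 genes, Hspa5, Dnajc3 and Herpud1, were lower in PPK in both settings. For Hspa5 the sham deficit was the larger (difference 0.32 ± 0.029, limma adjusted p 0.00016), although quantile normalization turned this to -0.20 (limma adjusted p 0.0105) and at equal summed FPKM it did not pass (0.060, limma adjusted p 0.159). The Dnajc3 deficit was larger in ADT mice (-0.27 ± 0.059, limma adjusted p 0.0087), and for Herpud1 the difference did not pass (0.12 ± 0.111, limma adjusted p 0.41).

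Genes with no call in sham mice and a higher PPK level in ADT mice were Pdia3, P4hb, Derl1, Sec61b, Sec61g and Ssr4, and all 6 passed the difference. That of P4hb (0.75) was 0.35 under quantile normalization (limma adjusted p 0.0613). The Pdia3 difference (0.34) became -0.18 under quantile normalization (limma adjusted p 0.0366). Downward differences were found for Dnajc3, Calr (-0.21 ± 0.036, limma adjusted p 0.0033), Edem1 (-0.24, limma adjusted p 0.031) and Xbp1 (-0.38, limma adjusted p 0.021). That of Edem1 ended when any library but PPK sham B or PPK ADT A was left out (limma adjusted p up to 0.0875 without PPK sham A), and that of Xbp1 without PP sham B, PPK sham A or PP ADT A (up to 0.0662). The upward value of Ssr1 (0.50, limma adjusted p 0.044) held only without PPK sham B or PP ADT A, with a limma adjusted p of up to 0.125 without PPK sham A.

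**Figure D4:**
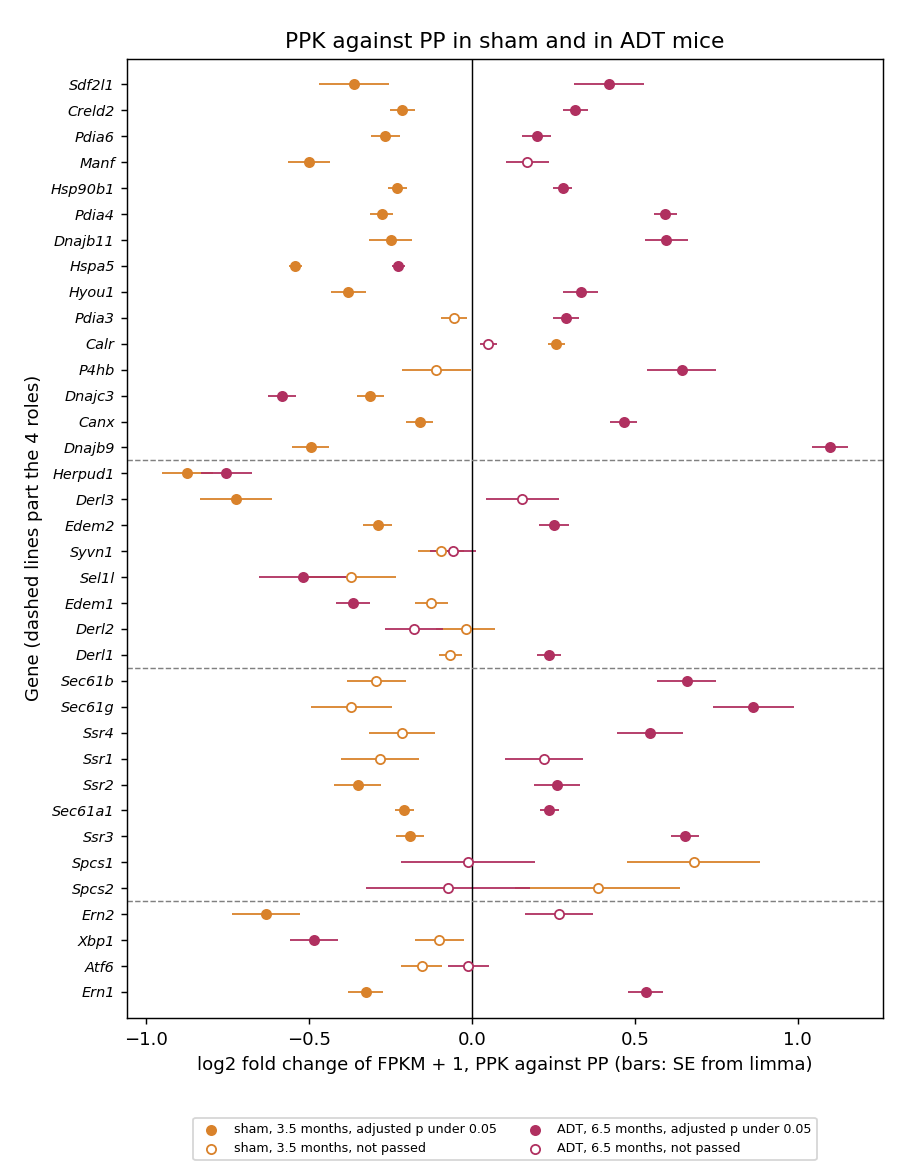
Each row is a gene, with the log2 change of FPKM + 1 in PPK against PP in sham mice (orange) and in ADT mice (red); bars are the SE from limma and filled points have an adjusted p under 0.05. Most chaperone and translocon genes lie left of 0 in sham mice and right of 0 in ADT mice, while Herpud1, Hspa5 and Dnajc3 lie left of 0 in both.

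The genes with an ERSE or ERSE-II in the searched window were compared with those without one as a description. Leaving out Derl3, all 10 genes with an element fell after ADT in PP mice (median log2 change -0.78), as did 9 of the 18 without, of which 2 others rose (median -0.34). In PPK mice 8 of the 10 with an element fell and 1 rose (median -0.59), against 5 falls and 4 rises among the 18 (median 0.10). The genotype difference in ADT mice had 5 higher and 3 lower among the 10, and 11 higher and 3 lower among the 18. Herpud1 and Hsp90b1 both carry elements and had opposite genotype changes in ADT mice on the deposited scale, and Pdia4, with no match, had a higher level like Hsp90b1. The split overlaps with role: 8 of the 10 are chaperone and folding genes, and 0 of the 7 translocon genes with a window had an element. All 15 chaperones and folding enzymes fell in PP mice, with or without an element. The contrast therefore largely cannot be told apart from one between roles. Whether the elements bear on these changes was not tested.

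The wider secretory machinery was followed with lists of other genes of the same pathway. Among the 11 oligosaccharyltransferase genes, whose products attach N-linked sugars as chains enter the ER, 10 fell after ADT in PP mice, beside 25.1% of all tested genes. In PPK against PP ADT mice 6 were higher and 0 lower, beside 32.5% and 27.1% of all tested genes. The catalytic subunit gene Stt3a averaged 19.2 FPKM in PP sham, 15.4 in PP ADT and 19.1 in PPK ADT (PPK against PP 0.29 ± 0.040, limma adjusted p 0.00084). Ostc (0.67 ± 0.063, limma adjusted p 0.00014) and Magt1 (0.41 ± 0.052, limma adjusted p 0.00059) were also higher in PPK ADT.

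Coat genes gave a like picture in PP mice. Of 12 genes of COPI and retrieval, which return escaped ER proteins, 9 fell and 0 rose. Of 19 genes of COPII and ER exit, 8 fell and 2 rose. Over all tested genes 25.1% fell and 19.1% rose in PP mice. In ADT mice 9 of the 19 COPII genes were higher and 4 lower in PPK, beside 32.5% of all tested genes higher and 27.1% lower. Of the 12 COPI genes 3 were higher and 2 lower, below both shares. Tmed3, a cargo receptor, averaged 29.2 FPKM in PP sham, 22.04 in PPK sham, 9.28 in PP ADT and 13.7 in PPK ADT. Kdelr2, a receptor for ER-resident proteins with a retrieval signal, was likewise higher in PPK than in PP mice after ADT (0.41 ± 0.044, limma adjusted p 0.00026). Of 16 other genes of targeting and translocation, 10 fell and 1 rose in PP mice. In ADT mice 4 of the 16 were higher and 4 lower in PPK, no more than the 32.5% and 27.1% of all tested genes.

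Other folding genes included some with deep falls. Of 21 other folding enzymes tested, 10 fell and 2 rose after ADT in PP mice, 11 fell and 4 rose in PPK mice, and in ADT mice 7 were higher and 5 lower in PPK, near the shares of all tested genes. Dnajc10, which encodes the reductase ERdj5, read 208 and 207 FPKM in PP sham, 105 and 99.1 in PPK sham, 37.97 and 37.1 in PP ADT and 11.6 and 12.3 in PPK ADT. Agr2, a disulfide isomerase relative of mucosal secretory cells, read 98.6 and 101 in PP sham, 47.3 and 55.4 in PPK sham, 23.0 and 23.7 in PP ADT and 8.21 and 7.57 in PPK ADT. Both stepped down across the 4 groups as Herpud1 did, with PPK against PP log2 changes in ADT mice of -1.57 ± 0.042 and -1.46 ± 0.077 (limma adjusted p 4.2e-07 and 8.6e-06). Ero1l, the oxidase that recharges disulfide isomerases and a known hypoxia-responsive gene, went the other way, at 19.5 and 19.0 in PP ADT and 93.7 and 92.6 in PPK ADT (2.22 ± 0.047, limma adjusted p 1.7e-07). Of 14 other degradation genes, 7 were lower and 1 higher in PPK than in PP ADT mice, beside 27.1% and 32.5% of all tested genes.

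At equal summed FPKM most of these lists had more genes lower than higher in PPK ADT mice. So did all tested genes, with 24.3% higher and 37.3% lower. Among oligosaccharyltransferase genes 3 were then higher and 2 lower, and Stt3a did not pass (0.089, limma adjusted p 0.118). COPII genes gave 4 higher and 7 lower, near those shares, COPI genes 1 and 6, other targeting genes 1 and 8, other folding enzymes 3 and 10, and other degradation genes 0 and 12. After ADT in PP mice, 6 of the 11 oligosaccharyltransferase genes, 6 of the 12 COPI genes, 4 of the 19 COPII genes and 6 of the 16 targeting genes fell on that scale, beside 18.1% of all tested genes.

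Regulators outside the 36 fell more often than they rose. Of 16 other sensors and stress regulators, 8 fell and 2 rose after ADT in PP mice, beside 25.1% of tested genes lower and 19.1% higher. In PPK mice 11 fell and 1 rose, beside 30.7% lower and 31.9% higher. In ADT mice 7 were lower and 2 higher in PPK, beside 27.1% lower and 32.5% higher. Eif2ak3, which encodes the third sensor PERK, averaged 71.3 ± 1.99 FPKM (SD, n = 2) in PP ADT and 25.5 ± 0.355 in PPK ADT (-1.45 ± 0.047, limma adjusted p 1e-06), opposite to Ern1. Atf4, the factor downstream of PERK, was lower in PPK ADT as well (-0.76 ± 0.052, limma adjusted p 3e-05). Creb3l4, a factor of secretory cells, fell after ADT in both genotypes, from 11.1 to 3.33 FPKM in PP and from 10.5 to 3.12 in PPK mice. Bhlha15, another such factor, went from 3.22 to 0.388 FPKM in PP and from 3.27 to 0.433 in PPK mice. Since only sham libraries carried Bhlha15 past the filter, its values are a description with no test, though the counts of falls above include it. Neither factor passed between genotypes.

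Genes of secreted prostate and gland products were set beside the members, since these are proteins the ER handles. The 24 listed genes found in the files summed to 7258 ± 85.9 FPKM in PP sham, 6099 ± 404 in PPK sham, 4045 ± 44.7 in PP ADT and 1259 ± 33.7 in PPK ADT. PPK ADT had the lowest sum of secreted products and not the lowest sum of chaperones: against PP ADT the secreted sum differed by -68.9%, the chaperone sum by 19.6%, the translocon sum by 31.2% and the degradation sum by -14.5%. As shares of all FPKM these differences were -73.2%, 2.82%, 12.8% and -26.5%, and on that scale the chaperone libraries of the ADT genotypes overlapped. Within PP mice, ADT against sham gave -44.3% for secreted products and -40.1% for chaperones. In PPK mice the corresponding values were -79.4% and -20.2%. As shares of all FPKM they were -39.2% and -34.6% in PP mice and -81.1% and -27.1% in PPK mice. A few abundant genes carry the secreted sums, Clu and Pigr among them in the sham groups and PP ADT. In PPK ADT most of the sum came from Ltf, which averaged 787 FPKM there. Over the 23 tested secreted genes the median log2 change after ADT was -3.27 in PP and -3.82 in PPK mice, and 16 and 19 of them fell. In each ADT library 13 or 14 of the 24 listed genes were under 1 FPKM. Many of these, Pbsn, Svs2 and Svs5 among them, passed the FPKM filter only through sham libraries. For those the filter favoured a fall, so these medians and counts are descriptions. Between genotypes in ADT mice the median of the 23 genes was 0. It falls on genes at or near 0 FPKM in both genotypes and does not describe the expressed ones. With 4 groups, these sums allow no test of a relation between secretory load and chaperone level.

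Which products made up the sum differed by group. In ADT mice 10 of the 23 tested secreted genes were lower and 6 higher in PPK, beside 27.1% of all tested genes lower and 32.5% higher. Pigr, the receptor that carries immunoglobulin across epithelium, averaged 1070 ± 5.29 FPKM in PP ADT and 33.0 ± 1.97 in PPK ADT, and Clu, a secreted chaperone, 1355 ± 4.51 and 100.3 ± 10.8. Ltf went the other way, averaging 441 ± 6.13 FPKM in PP ADT and 787 ± 28.7 in PPK ADT. Svs2, a seminal coagulum protein gene, went from 809 ± 16.7 FPKM in PP sham to 0.0621 ± 0.0119 in PP ADT.

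Markers of cell state and of other cells moved with these groups. Of 10 luminal markers, 9 were lower and 0 higher in PPK than in PP ADT mice, beside 27.1% and 32.5% of all tested genes. Their sum went from 5975 to 1914 FPKM. Of 7 basal markers, 6 were higher, and their sum went from 876 to 5845 FPKM, with Krt5 at 3242 and 3243 FPKM in the PPK ADT libraries. The 10 fibroblast markers summed to 7.36 FPKM in PP sham, 23.8 in PPK sham, 5.98 in PP ADT and 52.8 in PPK ADT, and all 8 that were tested were higher in PPK than in PP mice after ADT. All of these but Dcn passed the FPKM filter only through PPK libraries. The filter thus favoured a higher PPK level, and the count is a description. Of 12 macrophage markers, the sum was 65.9, 136, 144 and 55.1 FPKM in the same order, and most of it came from Cd14 in every group but PPK ADT. Without Cd14 the sums were 24.3, 45.2, 45.1 and 40.1 FPKM.

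Plasma cells also have abundant ER. Of 14 B and plasma cell markers, 9 to 12 were under 1 FPKM in each library; the list's sum, 91.1 to 385 FPKM over the group means, came mostly from Sdc1 and Prdm1, which epithelium also expresses. Tnfrsf17 was at 0 in all 8 libraries, and Mzb1 was at most 0.295 FPKM. Immunoglobulin genes did move: Igkc averaged 0.176 FPKM in PP sham, 0.227 in PPK sham, 7.99 in PP ADT and 6.58 in PPK ADT. Ighm averaged 0 FPKM in PP sham and 2.88 in PP ADT, and Igha 0.161 and 2.14, while Igha stayed near 0 in PPK mice (0.0106 and 0.0232). All 5 tested genes of the list rose after ADT in PP mice (median log2 change 1.43), and 4 of 5 rose in PPK mice. Of these, Igkc, Ighm and Igha passed the FPKM filter only through ADT libraries. For them the filter favoured a rise, so these counts are a description. Immediate early genes, which rise when tissue is dissociated, summed to 6670.4, 4874, 4119 and 2763 FPKM. Of 13 such genes, 11 were lower and 1 higher in PPK than in PP sham mice, 10 lower and 1 higher in PPK than in PP ADT mice, and 12 fell and 1 rose after ADT in PP mice. The part that these shifts in luminal, basal, stromal, immune and immediate early genes play in the ER gene results was not tested.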

How the data were processed

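Trizol served for extraction and a strand-specific TruSeq kit for the libraries, per the labels' protocols. The authors deposited 1 FPKM value per gene for each of 8 libraries. The build mm10 and FastQC 0.11.2 are named per the submitters' processing notes; for the aligner, the quantifier and the gene models, the name is not given in the sources used here. Gene identifiers were matched to symbols, giving 55154 of 55335 identifiers a symbol. From these deposited FPKM values, log2(FPKM + 1) was fitted with 4 group means in limma 3.58.1 (R 4.3.3), with a mean-variance trend, over the 14000 genes with at least 1 FPKM in 2 or more libraries. That left 4 residual degrees of freedom, and limma added 2.4 from the other genes. All p-values are two-sided and adjusted by Benjamini-Hochberg over those genes. The scripts were tested on simulated data.

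Relative depth, read from the lowest values, was between 0.702 and 0.829 of PP sham A in the other 7 libraries; absolute depth is unknown, so no counting interval is given. Alternatives were a pseudocount of 0.1, no filter, a mean of at least 5 FPKM, median-of-ratios and quantile scaling, scaling to equal summed FPKM (added after seeing the data), the library letter as a block, a fit of only the groups compared, no trend, and each library left out. The members, roles and other lists were chosen with earlier results of these data known. Members were all open to naming, and other lists give up to 4 genes with the smallest adjusted p in the comparison described. Ltf is named for its part in a summed level. Where a symbol matched 2 identifiers, the one with the higher mean was used. Sequences come from RefSeq windows on GRCm38.p6, trimmed to bases outside GENCODE M21 exons; organoid samples were not analysed here. The gene of the deletion shared by all groups is not reported here.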

Additional observations from a re-analysis of the deposited data

Results flagged for a closer look

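For 29 of the 36 genes the effect of Kmt2c loss differed between sham and ADT mice by a test of the difference itself (limma, adjusted over 14000 genes). Values here are the log2 change of PPK against PP in ADT mice minus that in sham mice. Among chaperones and folding enzymes they were 0.32 for Hspa5, 0.51 for Hsp90b1, 0.71 for Hyou1, 1.60 for Dnajb9, 0.85 for Dnajb11, 0.78 for Sdf2l1, 0.67 for Manf and 0.53 for Creld2. The lectin chaperone and isomerase genes gave 0.63 for Canx, 0.34 for Pdia3, 0.87 for Pdia4, 0.46 for Pdia6 and 0.75 for P4hb. Degradation genes gave 0.54 for Edem2, 0.30 for Derl1 and 0.88 for Derl3.

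All 7 Sec61 and TRAP genes were upward, at 0.45 for Sec61a1, 0.95 for Sec61b, 1.23 for Sec61g, 0.50 for Ssr1, 0.61 for Ssr2, 0.84 for Ssr3 and 0.76 for Ssr4. The IRE1 genes were at 0.86 for Ern1 and 0.90 for Ern2. Both Ern2 and Derl3 are under 1 FPKM in the ADT libraries, so their values rest mostly on the sham difference. Downward differences were -0.27 for Dnajc3, -0.21 for Calr, -0.24 for Edem1 and -0.38 for Xbp1. With libraries scaled to equal summed FPKM, Hspa5, Pdia3, Derl1 and Ssr1 no longer passed.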

How the results depend on the processing

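With 2 libraries a group, 1 library can decide a call: of 126 member calls over the 5 comparisons, 27 lost significance or turned under at least 1 alternative, and the other 99 kept their direction and passed under every alternative in which the gene was tested. Another 39 values changed sign where neither setting passed. Quantile normalization turned 5 values, in ADT mice those of Calr (-0.34), Hsp90b1 (-0.070) and Pdia3 (-0.17) and in the difference of differences those of Hspa5 (-0.20) and Pdia3 (-0.18). Scaling to equal summed FPKM, chosen after seeing the data, gave 11 higher and 10 lower in ADT mice, and turned Calr (-0.17) and Pdia6 (-0.014) there and Pdia4 in PPK mice (-0.12). It moved the higher share of calls over all genes from 54.6% to 39.4% in ADT mice, from 43.1% to 57.9% in PP mice and from 56.8% to 39.8% for the difference. Spcs1 in ADT mice ran from -0.36 without PP ADT B to 0.34 without PP ADT A. The cause was not tested. In sham mice the count of higher members was 2 in place of 1 with a mean of at least 5 FPKM, with median-of-ratios, quantile or summed-FPKM scaling, with the replicate block and with only the groups compared. In PP mice the count that rose was 1 in place of 2 with a pseudocount of 0.1, without a filter, without a trend and with the replicate block. Leaving out each library gave 1 to 2 higher and 15 to 23 lower in sham mice, 19 to 21 and 5 to 7 in ADT mice, 1 to 2 and 24 to 26 in PP mice, 7 to 9 and 15 to 18 in PPK mice, and 24 to 25 and 2 to 4 for the difference. The labels do not tie letters A and B across groups. Deviations of same-lettered libraries correlated between -0.0079 and 0.057, which shows little shared letter effect but cannot tell whether libraries were paired. The replicate block gave 2 higher and 20 lower in sham mice, 20 and 6 in ADT mice and 1 and 25 in PP mice. It gave 9 and 16 in PPK mice and 24 and 4 for the difference.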
